A study of Danio rerio with 2 samples.

Results

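The islet identity transcription factors described here are *arxa*, *pdx1*, *mnx1*, *hhex*, *pax6b*, *neurod1*, *isl1*, *insm1b*, *myt1b* and *foxa2*. They were taken as a list of known regulators, chosen with earlier results of these data known. They are 10 of the 24900 genes counted in both samples. All 10 had counts in both samples. One sample held cells of control larvae, *Tg(gcga:GFP)*, which are wild type for the glucagon receptors, and the other held cells of *gcgr-/-*;*Tg(gcga:GFP)* larvae, whose glucagon receptor genes *gcgra* and *gcgrb* both carry disrupting mutations. In both, larvae were taken at 7 dpf (days post fertilization), islets were picked by hand, and cells that were green were sorted into wells for a modified Smart-seq2 protocol that reads 3' ends. The GFP of both is driven by the promoter of *gcga*, 1 of the 2 zebrafish genes for glucagon. How many larvae were pooled is not given in the sources used here.

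Islet cells are told apart by the hormone they make and by the homeobox and other transcription factors that set and hold that choice. *arxa* is a homeobox gene of zebrafish α cells. Pdx1 is needed for the pancreas and for β cells, Mnx1 keeps β-cell precursors of zebrafish on the β path, and Hhex is needed for δ cells in mouse. Pax6, Neurod1, Isl1 and Insm1 act in endocrine cells of every kind, Myt1 acts in endocrine differentiation in mouse, and Foxa2 is a forkhead factor of the endoderm that stays on in the islet.

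Of 192 control cells and 384 *gcgr-/-* cells, 156 and 288 were used, those with 500 or more detected genes and no more than 10% of counts on mitochondrial genes. Their depth ran from 2231 to 286288 counts (median 22042 in control, 25522.5 in *gcgr-/-*). The labels call every cell an α cell, yet glucagon transcripts (gcga or *gcgb*) led in 3 control and 106 *gcgr-/-* cells only. A cell was placed by its leading hormone, the one with the most counts of 8 if it held at least 1% of the counts of the cell. By this rule *ins*, the insulin gene, led in 41 control and 54 *gcgr-/-* cells, and 2 somatostatin genes led in most others, *sst1.1* in 36 and 52 cells and *sst1.2* in 29 and 29. No hormone led in 31 and 27 cells. The rest were led by *sst2* (6 and 6 cells), *gip* (7 and 2) or *ghrl* (3 and 12). The targeted genes were too low to check the genotypes, since *gcgra* had 13 counts over 2 control cells and 23 counts over 3 of *gcgr-/-*, and *gcgrb* had 1 count in each sample. By the letter that opens each cell's name, the control cells fell in 2 groups (A and B) and the *gcgr-/-* cells in 4 (C to F). These groups are called plates here, though the sources used do not say what the letter means. Plate and genotype cannot be told apart. All 48 cell barcodes occur in both samples, as well indexes do. With 1 sample per genotype no test of the genotype could be made, and no p value is given.

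Levels are counts summed over the cells of a kind, per 1000000 counts of those cells (CPM). Intervals are at the 95% level. Those of ratios cover counting error only, and since reads were not stated to be collapsed to molecules they are too narrow. A share of cells is the percentage with at least 1 count, with an exact binomial (Clopper-Pearson) interval. That interval treats the cells of a sample as independent and does not cover the spread between larvae or samples. Where no cell had a count, the share that 3 counts would give is named as the limit, and the exact upper bound stands beside it. Reads at the 3' end were counted only where they fell on coding sequence, so levels are compared for 1 gene between groups. Where genes are set side by side, as members and their copies are, the values describe counts and do not rank expression.

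Among *gcgr-/-* cells, *arxa* was counted mainly in glucagon-led cells. In *gcgr-/-* glucagon-led cells it had 110 CPM, with a count in 46 of 106 cells (43.4%, interval 33.8 to 53.4). With each cell thinned to 5000 counts the share was 21.9%. By plate the share ran from 28.6% (F) to 65.5% (E), and the level from 34.7 to 200 CPM. In the other hormone-led kinds with 20 or more *gcgr-/-* cells it was rare. No *ins*-led cell had a count, 0 of 54, which allows a share of up to 5.56% (exact bound 6.60%), and the *sst1.1*-led and *sst1.2*-led cells had 2 cells each with a count, at 5.31 and 1.49 CPM. The glucagon-led level was at least 71.7-fold that of *ins*-led cells, with the latter set at the floor of 3 counts over the group (at least 58.0-fold by the exact interval, and 13.0-fold against the floor with cells thinned to 5000 counts). It was 20.7-fold that of *sst1.1*-led cells (interval 10.4 to 48.3), and this was 8.44-fold without plate E and 51.9-fold without plate F.

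The control sample had 3 glucagon-led cells only. Of these, 2 had *arxa*, at 109 CPM over the 3 cells. Most control cells with a count of *arxa* were of other kinds. In control *ins*-led cells 1 of 41 had a count, and in *sst1.1*-led cells 0 of 36 did, which allows a share of up to 8.33% (exact bound 9.74%). The 57.7 CPM of control *sst1.2*-led cells came from 2 of 29 cells on plate B, with 28 counts between them, against 1.49 CPM and 2 cells in *gcgr-/-*. The difference between genotypes in *sst1.2*-led cells thus rests on 2 control cells.

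*pdx1* was counted in most *ins*-led and most *sst1.1*-led cells of both genotypes and in few cells of the other kinds with 20 or more cells. Of the smaller kinds, all 7 control *gip*-led cells had it too. In control it had 302 CPM in *ins*-led cells, with a count in 35 of 41 (85.4%, interval 70.8 to 94.4), and 289 CPM in *sst1.1*-led cells, with a count in 29 of 36 (80.6%, 64.0 to 91.8). In *gcgr-/-* the values were 181 CPM and 43 of 54 cells (79.6%, 66.5 to 89.4) for *ins*-led cells, and 280 CPM and 38 of 52 (73.1%, 59.0 to 84.4) for *sst1.1*-led cells. The 2 kinds of cell had levels within each other's counting error in control (ratio of *sst1.1*-led to *ins*-led 0.958, interval 0.831 to 1.1), and in *gcgr-/-* the *sst1.1*-led level was 1.54-fold the *ins*-led one (1.34 to 1.78).

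The *sst1.2*-led cells stood apart from the *sst1.1*-led cells in this factor. There *pdx1* had 12.4 CPM in control and 12.0 CPM in *gcgr-/-*, with a count in 3 of 29 (10.3%) and 5 of 29 cells (17.2%). The *sst1.1*-led level was 23.4-fold higher in control (interval 10.6 to 64.2) and also 23.4-fold higher in *gcgr-/-* (14.2 to 41.3). By plate, the *sst1.1*-led cells ran from 203 to 395 CPM and the *sst1.2*-led cells from 0 to 34.7 CPM, with no overlap. The shares by plate did not overlap either, 64.3% to 88.2% against 0% to 42.9%. In glucagon-led *gcgr-/-* cells 8 of 106 had *pdx1* (7.55%), at 21.4 CPM, and 45 of the 88 counts were in 1 cell. The *ins*-led level was 8.49-fold that of glucagon-led cells (6.71 to 10.9), and it was 5.29-fold without plate E and 18.7-fold with a leading hormone at 5% of counts.

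*hhex* was counted in both kinds of somatostatin cells. In *sst1.1*-led cells it had 154 CPM in control and 245 CPM in *gcgr-/-*, with a count in 26 of 36 (72.2%, interval 54.8 to 85.8) and 38 of 52 cells (73.1%, 59.0 to 84.4). In *sst1.2*-led cells 24 of 29 control (82.8%, 64.2 to 94.2) and 23 of 29 *gcgr-/-* cells (79.3%, 60.3 to 92.0) had a count. In the 6 *sst2*-led cells of each sample, 5 control and 3 *gcgr-/-* cells had it. The other kinds were low. A count was found in 3 of 41 control (7.32%) and 8 of 54 *gcgr-/-* *ins*-led cells (14.8%), and in 13 of 106 glucagon-led *gcgr-/-* cells (12.3%). The *sst1.1*-led level was 12.9-fold the *ins*-led one in control (7.87 to 22.6) and 5.62-fold in *gcgr-/-* (4.43 to 7.21). The control value was 4.82 without plate B and 48.6 without plate A, and the *gcgr-/-* value was 27.5 without the cells that had a second hormone.

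**Figure D1:**
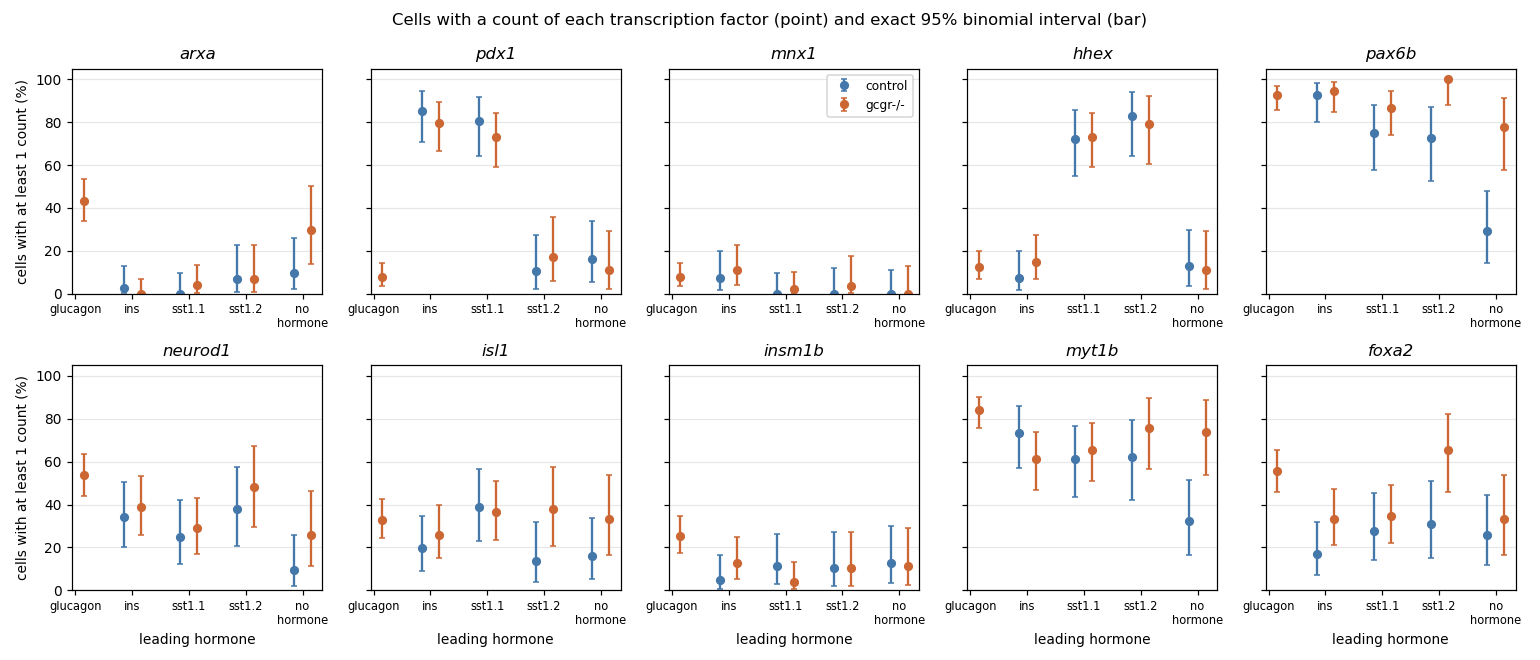
Share of cells with at least 1 count of each factor (y axis, percent) by leading hormone (x axis), with control in blue, *gcgr-/-* in orange and exact 95% binomial intervals as bars; the 3 control glucagon-led cells are not drawn. *pdx1* is high in *ins*-led and *sst1.1*-led cells (73.1% to 85.4%), *hhex* in *sst1.1*-led and *sst1.2*-led cells (72.2% to 82.8%), and *arxa* reaches 43.4% in glucagon-led cells, while *pax6b* is above 70% in each hormone-led kind drawn.

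The 2 factors met in the *sst1.1*-led cells. Both *pdx1* and *hhex* had a count in 23 of 36 control (63.9%, interval 46.2 to 79.2) and 29 of 52 *gcgr-/-* *sst1.1*-led cells (55.8%, 41.3 to 69.5). The products of the separate shares are 58.2% and 53.4%. In *ins*-led cells the pair was found in 3 of 41 and 5 of 54 cells, and in *sst1.2*-led cells in 3 of 29 and 4 of 29. So *sst1.1*-led cells mostly held both, *ins*-led cells mostly *pdx1* without *hhex* (32 of 41 and 38 of 54, with no *arxa* either), and *sst1.2*-led cells mostly *hhex* without *pdx1* and *arxa* (20 of 29 and 17 of 29).

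Cells with a second hormone bear on this pair. Of the *sst1.1*-led cells, 11 of 36 control and 17 of 52 *gcgr-/-* cells had a second hormone at 1% of counts or more. In the cells with no second hormone the pair was still found in 14 of 25 control (56%) and 16 of 35 *gcgr-/-* cells (45.7%). With each cell thinned to 5000 counts the shares in *sst1.1*-led cells were 25% and 27.5%, against 4.88% and 1.89% in *ins*-led and 3.57% and 0% in *sst1.2*-led cells. No doublet caller was run.

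**Figure D2:**
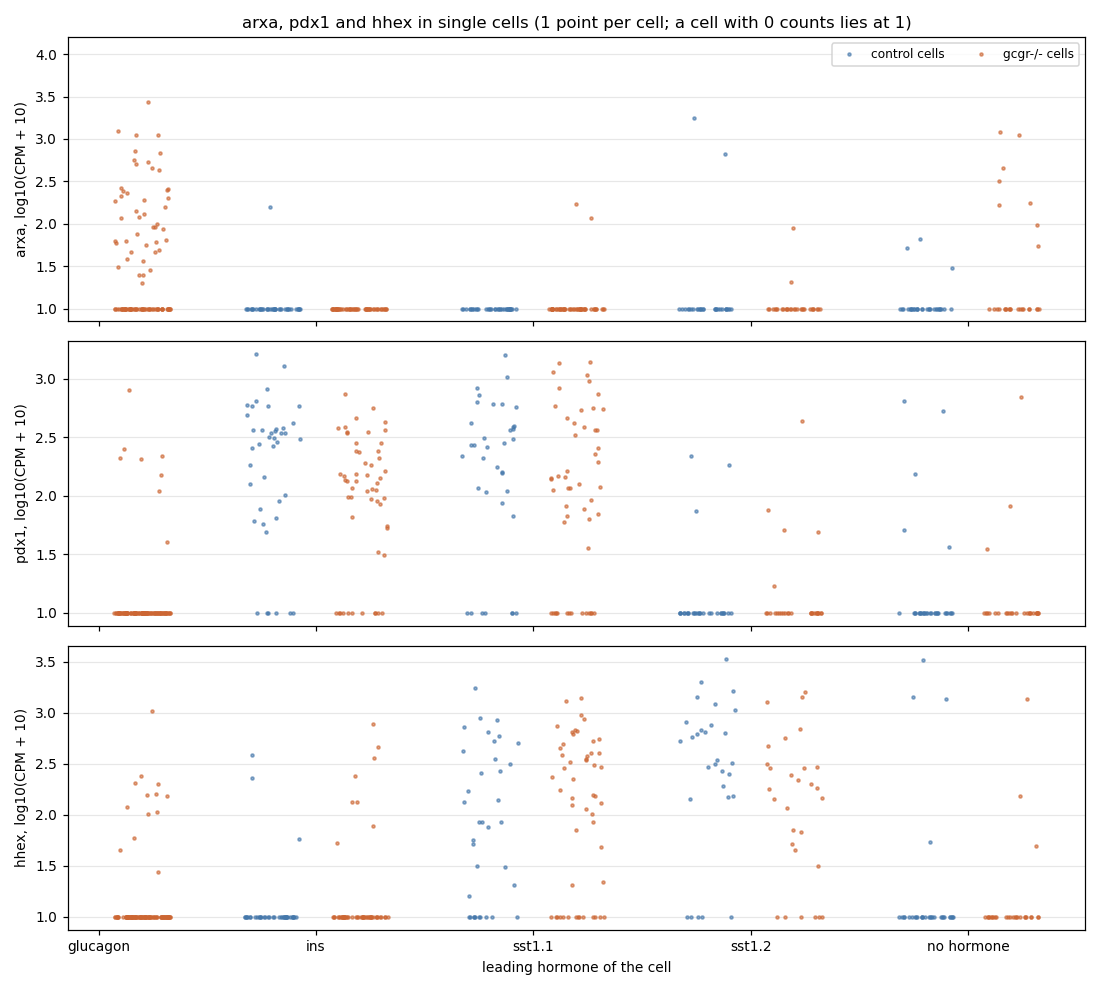
Level of *arxa*, *pdx1* and *hhex* in each cell (y axis, log10 of CPM plus 10) by leading hormone (x axis), 1 point per cell, control in blue and *gcgr-/-* in orange; cells with 0 counts lie at 1. *arxa* points rise off the base line in 46 of 106 glucagon-led *gcgr-/-* cells and in 8 of 27 *gcgr-/-* cells with no leading hormone, and *pdx1* points in most *ins*-led and *sst1.1*-led cells.

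**Figure D3:**
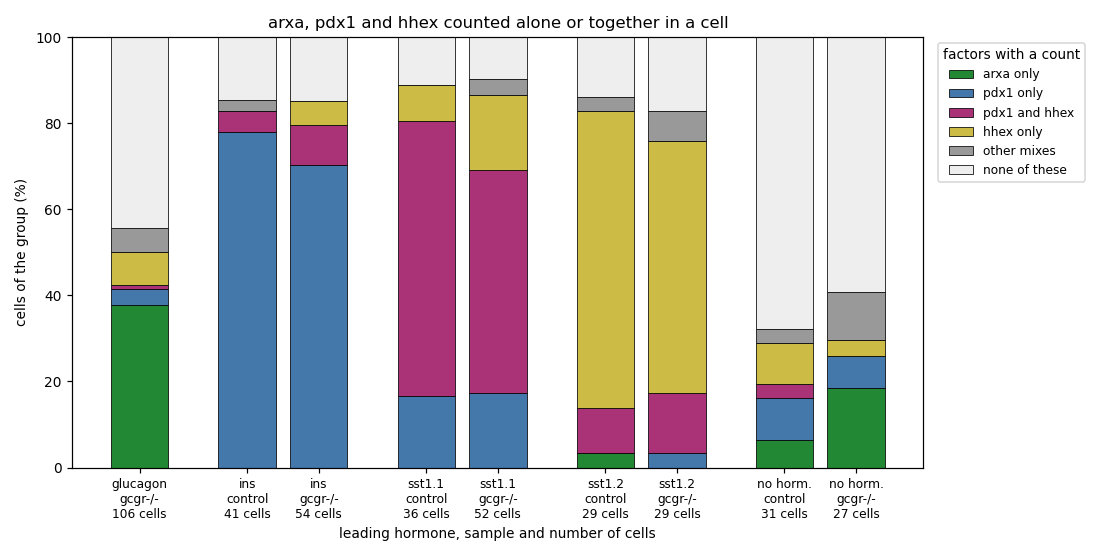
Percent of the cells of each group (y axis) that had a count of *arxa*, *pdx1* or *hhex* alone, of *pdx1* with *hhex*, of another mix or of none of the 3, by leading hormone and sample (x axis). The purple segment, *pdx1* with *hhex* without *arxa*, makes up 23 of 36 control and 27 of 52 *gcgr-/-* *sst1.1*-led cells and is small elsewhere.

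*mnx1* was close to the limit of detection. In *ins*-led cells 3 of 41 control and 6 of 54 *gcgr-/-* cells had a count, at 9.79 and 25.6 CPM, and 41 of the 50 *gcgr-/-* counts were in 1 cell. In glucagon-led *gcgr-/-* cells 8 of 106 had a count (7.55%), at 3.64 CPM, with at most 4 counts in a cell. The *sst1.1*-led cells had 0 of 36 in control, which allows a share of up to 8.33% (exact bound 9.74%), and 1 of 52 in *gcgr-/-*, with all 27 counts. The level of this factor in *ins*-led and *sst1.1*-led *gcgr-/-* cells was thus set by single cells. Some of its ratios change side when the highest cell, a plate or the cells with a second hormone are left out.

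*pax6b* was the most widely counted of the 10. In *gcgr-/-* it had 737 CPM in glucagon-led cells (98 of 106, 92.5%), 1103 CPM in *ins*-led cells (51 of 54), 1387 CPM in *sst1.1*-led cells (45 of 52) and 1219 CPM in *sst1.2*-led cells (29 of 29). In control it had 520 CPM in *ins*-led (38 of 41), 335 CPM in *sst1.1*-led (27 of 36) and 531 CPM in *sst1.2*-led cells (21 of 29). The *ghrl*-led cells were the lowest in share, with 0 of 3 control and 4 of 12 *gcgr-/-* cells, the latter at 19.3 CPM. Between these 4 *gcgr-/-* kinds the levels lay within 2-fold of each other, and the glucagon-led level was 0.531 times the *sst1.1*-led one (interval 0.502 to 0.562).

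*neurod1*, a basic helix-loop-helix factor, was found in 25% or more of the cells of each hormone-led kind in the plot of shares. Its share was highest in glucagon-led *gcgr-/-* cells, with 57 of 106 (53.8%, interval 43.8 to 63.5) at 60.0 CPM, against 15 of 52 *sst1.1*-led cells (28.8%, 17.1 to 43.1) at 43.8 CPM. The levels did not differ by 2-fold (ratio 1.37, 1.04 to 1.82). Thinned to 5000 counts per cell, the shares were 22.9% and 13.7%. In *sst1.2*-led cells it had 68.0 CPM in control and 93.4 CPM in *gcgr-/-*, which were 3.63-fold (2.08 to 6.43) and 2.13-fold (1.57 to 2.92) the *sst1.1*-led levels. Without plate A the control ratio was 0.617, and without plate C the *gcgr-/-* ratio was 0.888, so neither direction held.

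*isl1*, a LIM homeobox factor, had ratios under 2-fold between the groups compared, but several moved with the processing. The ratio of *gcgr-/-* to control in *sst1.2*-led cells, 1.90, was past 2-fold in 7 of 14 alternatives, up to 6.87 at 750 or more detected genes. The ratio of *sst1.1*-led to *ins*-led control cells, 0.658, ran from 0.372 without plate B to 2.37 with the mean of each cell's own CPM. Its shares ran from 13.8% (4 of 29 control *sst1.2*-led cells) to 38.9% (14 of 36 control *sst1.1*-led cells), and its levels from 33.0 to 69.9 CPM over the hormone-led kinds. In control *ins*-led cells 60 of 100 counts were in 1 cell. No neighbours in the order of its levels in *gcgr-/-* cells differed beyond counting error. Kinds further apart did, with the *sst1.1*-led level 1.53-fold the *ins*-led one in *gcgr-/-* (1.14 to 2.05).

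*insm1b*, a zinc finger factor, was low in every kind and, of the kinds with 20 or more cells, highest in the glucagon-led one. It had 26.9 CPM there, in 27 of 106 *gcgr-/-* cells (25.5%, interval 17.5 to 34.9), with 55 of 111 counts in 1 cell. The *sst1.1*-led *gcgr-/-* cells had 2 counts in 2 of 52 cells (3.85%, 0.469 to 13.2), and the ratio was 20.3 (5.49 to 170), from 10.8 without plate F to 43.8 without plate D. At 5000 counts per cell the shares were 5.71% and 1.96%. The *ins*-led *gcgr-/-* cells had 8.20 CPM, 0.304 times the glucagon-led level (0.168 to 0.516), and without plate F this ratio was 1.12.

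*myt1b*, a zinc finger factor, was counted in 89 of 106 glucagon-led *gcgr-/-* cells (84.0%, interval 75.6 to 90.4), at 955 CPM. The *ins*-led *gcgr-/-* cells had 583 CPM with 33 of 54 (61.1%, 46.9 to 74.1), a ratio of 0.610 (0.571 to 0.652). The *sst1.1*-led and *sst1.2*-led *gcgr-/-* levels, 549 and 519 CPM, lay within counting error of each other. The 12 *ghrl*-led *gcgr-/-* cells had 982 CPM with 9 cells, so the low *pax6b* of these cells was not matched in *myt1b*.

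*foxa2* was counted in 59 of 106 glucagon-led *gcgr-/-* cells (55.7%, interval 45.7 to 65.3), at 394 CPM, and in 18 of 54 *ins*-led *gcgr-/-* cells (33.3%, 21.1 to 47.5), at 149 CPM. The *ins*-led level was 0.377 times the glucagon-led one (0.331 to 0.427), and it lay between 0.262 and 0.465 over the 11 alternatives. In control the *sst1.1*-led cells had 225 CPM and the *ins*-led cells 28.0 CPM, a ratio of 8.06 (5.77 to 11.5), with 10 of 36 and 7 of 41 cells counted. It was 3.50 without plate A and 13.4 at 750 or more detected genes. In *gcgr-/-* the same ratio was 1.77 (1.52 to 2.07).

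How many of the factors differed was set beside all genes by a pair of rules. A gene was called by ratio where the summed CPM differed by at least 2-fold with an interval outside 1, among genes with at least 20 counts in the 2 groups. It was called by share where the intervals of the shares of cells did not overlap, a rule added after the ratio rule was seen to call most genes. A gene counted in few cells of both groups cannot be called by share, yet it is among all genes. The share over all genes thus depends on how widely genes were counted, and it was not matched to the factors in this. Between *ins*-led and glucagon-led *gcgr-/-* cells, 6 of 10 factors were called by ratio and 58% of all genes were. By share 3 of 10 were called (pdx1 higher, *arxa* and *myt1b* lower), and 1.4% of all genes were. The median ratio was 0.840 over the 10 and 0.817 over all genes.

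Between glucagon-led and *sst1.1*-led *gcgr-/-* cells, 5 of 10 were called by ratio, beside 61.4% of all genes. By share 5 of 10 were called, beside 2.15% of all genes: *arxa*, *neurod1* and *insm1b* were higher in glucagon-led cells and *pdx1* and *hhex* lower. The glucagon-led cells were the deeper, with a median of 27511.5 counts per cell against 19188. With cells thinned to 5000 counts 3 of the factors were called by share, and the share over all genes was not taken there. The median ratio was 1.05 over the 10 and 1.06 over all genes. Between *sst1.1*-led and *ins*-led cells, *hhex* alone was called by share, of 7 factors compared in control (0.417% of all genes) and of 8 in *gcgr-/-* (0.826%). By ratio 2 of 7 (hhex and *foxa2*) were called in control and 1 of 8 (hhex) in *gcgr-/-*, beside 60.6% and 59.5% of all genes. Their median ratios were 0.893 and 1.39, beside 0.899 and 1.19 over all genes.

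Between *sst1.2*-led and *sst1.1*-led cells, *pdx1* alone was called by share, of 8 factors compared in each sample, beside 1.73% of all genes in control and 1.87% in *gcgr-/-*. By ratio 4 of 8 were called in control (arxa, *hhex* and *neurod1* higher in *sst1.2*-led cells, *pdx1* lower) and 3 of 8 in *gcgr-/-* (neurod1 higher, *pdx1* and *mnx1* lower), beside 66.1% and 64.8% of all genes. Their median ratios were 1.28 and 0.890, beside 0.899 and 0.791 over all genes. The *arxa* call in control rests on 2 *sst1.2*-led cells, and the *mnx1* call in *gcgr-/-* on 1 *sst1.1*-led cell. The *neurod1* ratio was 0.617 in control without plate A and 0.888 in *gcgr-/-* without plate C.

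Between the genotypes, *pax6b* was higher in *gcgr-/-* in each kind of cell compared. In *sst1.1*-led cells it had 335 CPM in control and 1387 CPM in *gcgr-/-* (ratio 4.14, interval 3.73 to 4.60), in *sst1.2*-led cells 531 and 1219 CPM (2.29, 2.01 to 2.63), and in *ins*-led cells 520 and 1103 CPM (2.12, 1.95 to 2.31). By plate, control and *gcgr-/-* did not overlap in *sst1.1*-led cells (284 to 365 against 492 to 1899 CPM) or in *sst1.2*-led cells (495 to 555 against 1060 to 1485 CPM). In *ins*-led cells they did, since plate C had 294 CPM, below both control plates (483 and 546 CPM), while plates D to F had 992 to 1782 CPM. The shares of cells differed less. They were 92.7% and 94.4% in *ins*-led, 75% and 86.5% in *sst1.1*-led, and 72.4% and 100% in *sst1.2*-led cells, and only the last pair had intervals that did not overlap (52.8 to 87.3 and 88.1 to 100). Without plate B, D, E or F these too overlapped.

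Depth and makeup of the cells also differed between the samples, and the depth in opposite directions by kind. The median counts per cell were 14403 in control and 28798 in *gcgr-/-* *sst1.2*-led cells, while in *sst1.1*-led cells control was the deeper (28086.5 against 19188). Thinned to 5000 counts, *pax6b* was counted in 60.7% and 96.6% of *sst1.2*-led, 50% and 80.4% of *sst1.1*-led, and 68.3% and 75.5% of *ins*-led cells. The 6 liver genes listed summed to 68.0 CPM in control and 1304 CPM in *gcgr-/-* *sst1.2*-led cells, with 4 of them at 0 in *gcgr-/-*, and their part in the result was not tested. With cells of a second hormone left out, the *pax6b* ratio was 1.92 in *sst1.2*-led and 1.38 in *ins*-led cells. Over every alternative it lay between 3.33 and 5.17 in *sst1.1*-led cells.

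**Figure D4:**
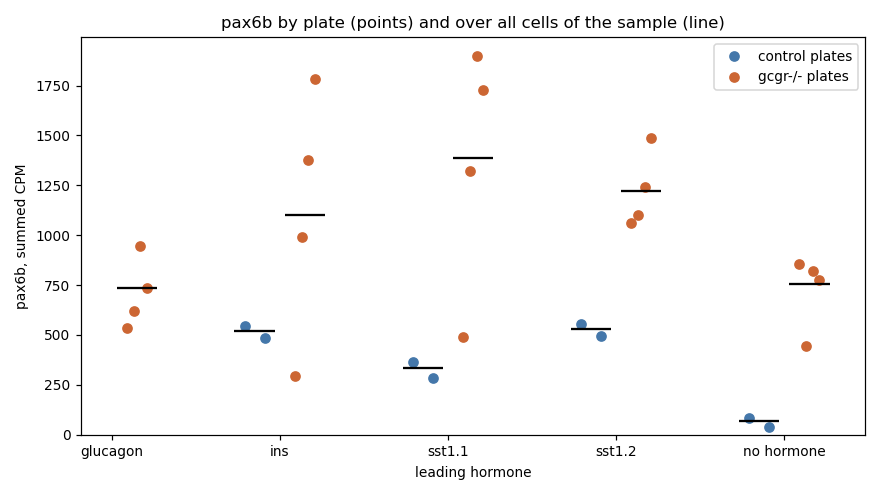
Summed CPM of *pax6b* (y axis) on each plate (points; control in blue, *gcgr-/-* in orange) and over all cells of the sample (black line) by leading hormone (x axis). The control plates lie between 40.7 and 555 CPM; every *gcgr-/-* plate lies above both control plates in *sst1.1*-led, *sst1.2*-led and no-hormone cells, and plate C falls below them in *ins*-led cells.

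*hhex* differed between the genotypes in *sst1.2*-led cells, where it had 694 CPM in control and 195 CPM in *gcgr-/-* (ratio 0.281, interval 0.238 to 0.331). The plates did not overlap, 397 and 891 CPM in control against 120 to 324 CPM. The share of cells did not follow, with 24 and 23 of 29 cells, although the *gcgr-/-* cells were the deeper. At 5000 counts per cell the shares were 75% and 41.4%. The direction was lost without the cells that had a second hormone, which was *sst2* in 13 of 29 control and 16 of 29 *gcgr-/-* cells. In the cells with 1 hormone, 13 control and 10 *gcgr-/-*, the levels were 468 and 585 CPM, a ratio of 1.25. The authors also deposited a smaller set of cells, from which the paper states that possible β and δ cells were excluded. It still held 29 of 36 control and 44 of 52 *gcgr-/-* *sst1.1*-led cells. In its *sst1.2*-led cells (18 and 11) the *hhex* ratio was 1.06. The liver genes given for *pax6b* stood at 68.0 and 1304 CPM in these same *sst1.2*-led cells, and their part here was not tested either.

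*foxa2* had 28.0 CPM in control and 149 CPM in *gcgr-/-* *ins*-led cells (ratio 5.32, interval 3.81 to 7.60), with no overlap by plate (22.5 to 35.8 against 79.6 to 234 CPM). The shares were 17.1% and 33.3%, with overlapping intervals (7.15 to 32.1 and 21.1 to 47.5). In *sst1.2*-led cells it had 231 and 474 CPM (2.06, 1.68 to 2.54) and in *sst1.1*-led cells 225 and 263 CPM (1.17, 1.001 to 1.36), and there the plates overlapped. The *foxa2* ratio in *ins*-led cells was 1.73 with the mean of each cell's own CPM and 10.7 at 750 or more detected genes, and in *sst1.2*-led cells it was 6.25 without the cells that had a second hormone.

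*pdx1* had ratios under 2-fold between the genotypes in the hormone-led kinds. Its ratio was 0.601 (interval 0.521 to 0.693) in *ins*-led, 0.967 (0.839 to 1.12) in *sst1.1*-led and 0.967 (0.360 to 3.02) in *sst1.2*-led cells, and the plates overlapped in each. In *ins*-led cells it was past 2-fold in 4 of 13 alternatives, down to 0.481 with cells thinned to 5000 counts, and in *sst1.2*-led cells it ran from 0.326 without plate C to 2.03 with the smaller set of cells that the authors kept. *myt1b* likewise had ratios of 1.26, 1.33 and 1.22, and *isl1* of 0.653, 1.52 and 1.90. *neurod1* had ratios of 1.58, 2.34 and 1.37, of which the second was 0.900 with a leading hormone at 5% of counts. These are levels of 1 sample each, and a ratio near 1 does not show that the genotypes were alike.

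By ratio, 4 of 9 factors compared were called in *ins*-led cells (mnx1, *hhex*, *pax6b* and *foxa2*, each higher in *gcgr-/-*), beside 64.8% of all genes in either direction and 34.2% higher, and 3 of 8 in *sst1.1*-led cells (mnx1, *pax6b* and *neurod1*, each higher), beside 66.6% and 40.9%. In *sst1.2*-led cells 4 of 8 were called (pax6b and *foxa2* higher, *arxa* and *hhex* lower), beside 67.6%. By share none was called in *ins*-led or *sst1.1*-led cells, beside 2.37% and 1.8% of all genes, and *pax6b* alone in *sst1.2*-led cells, beside 3.57%. The median ratios over the factors were 2.12, 1.56 and 1.29 in the 3 kinds, beside 1.05, 1.44 and 1.29 over all genes. The median of 2.12 in *ins*-led cells is the ratio of *pax6b* itself. Without the cells that had a second hormone, the *ins*-led ratios of *mnx1* and *hhex* were 0.531 and 0.683. Only 1 factor was then called by ratio in *ins*-led cells, with no share over all genes taken. Without plate F the *ins*-led ratio of *mnx1* was 0.576. The *mnx1* call in *sst1.1*-led cells rests on 1 cell.

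**Figure D5:**
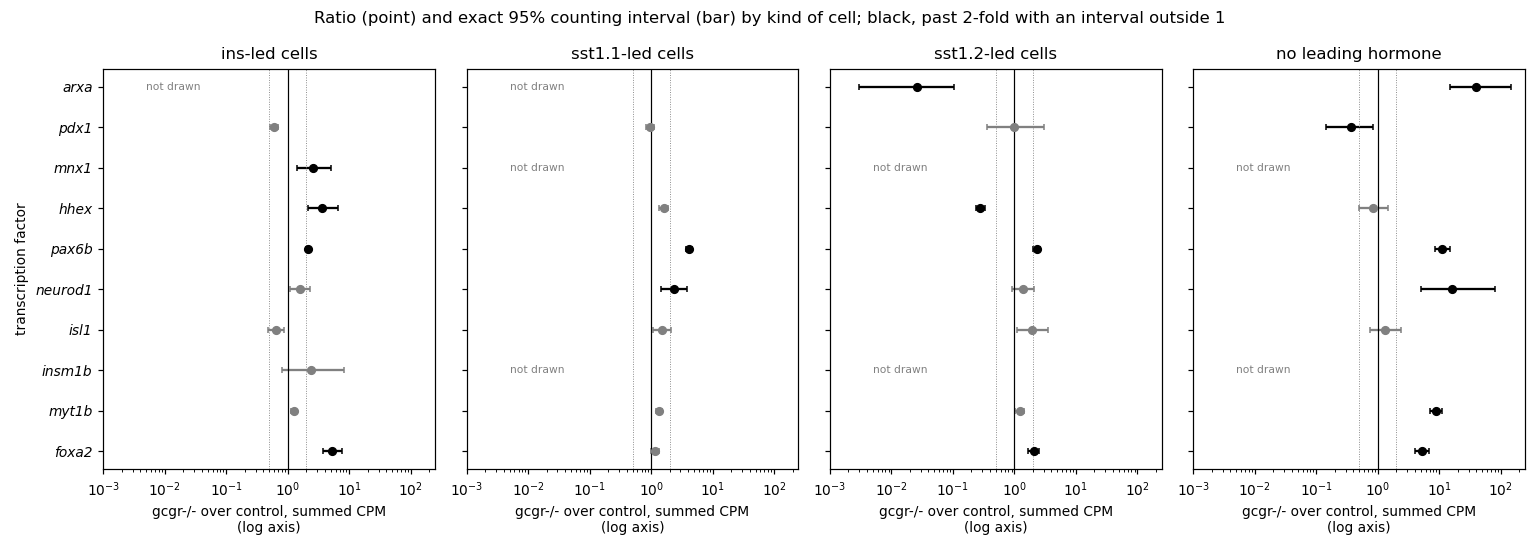
Ratio of summed CPM, *gcgr-/-* over control (x axis, log scale), of each factor (y axis) in 4 kinds of cell, with exact 95% counting intervals as bars; black points are past 2-fold with an interval outside 1, dotted lines mark 2-fold either way, and factors with under 20 counts or with 0 counts in 1 group are not drawn. *pax6b* lies to the right of 2 in all 4 panels, from 2.12 to 11.3.

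The cells with no leading hormone held the largest *pax6b* ratio between the genotypes. *pax6b* had 67.2 CPM in control, in 9 of 31 cells (29.0%, interval 14.2 to 48.0), and 757 CPM in *gcgr-/-*, in 21 of 27 cells (77.8%, 57.7 to 91.4). The ratio was 11.3 (8.65 to 14.9), from 6.38 with a leading hormone at 5% of counts to 18.6 without plate A, and the plates did not overlap (40.7 and 84.8 against 443 to 856 CPM). The depth was alike, with a median of 23765 and 23480 counts per cell, and thinned to 5000 counts the shares were 19.4% and 59.3%. *myt1b* had 101 CPM in 10 of 31 cells and 888 CPM in 20 of 27 (ratio 8.81, 7.07 to 11.1), which was 3.31 with a leading hormone at 5%. *foxa2* had 82.3 and 431 CPM (5.24, 4.05 to 6.84), in 8 of 31 and 9 of 27 cells, so its shares were close (25.8% and 33.3%). *neurod1* had 3 and 35 counts in 3 and 7 cells (16.1, 5.08 to 81.9), which was 3.44 thinned to 5000 counts. *arxa* had 4 counts in 3 of 31 control cells and 114 counts in 8 of 27 *gcgr-/-* cells (ratio 39.4, 15.0 to 147), which was 6.1 with a leading hormone at 5%. The *gcgr-/-* level of 171 CPM was 1.55-fold that of the glucagon-led cells (1.25 to 1.91). Of its 114 counts, though, 45 were in 1 cell of plate D and 34 in 1 cell of plate E. The share of *gcgr-/-* cells with *arxa* was the lower one, 29.6% against 43.4% of glucagon-led cells.

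By ratio 6 of 8 factors compared were called in these cells, 5 higher in *gcgr-/-* and *pdx1* lower (32.5 and 12.0 CPM, with 23 of 30 control counts in 1 cell), beside 71.5% of all genes in either direction and 41.1% higher. By share *pax6b* and *myt1b* were called, beside 1.32%, and without control plate B neither was. The median ratio was 6.79 over the factors and 1.31 over all genes. At least 1 count of *pax6b*, *neurod1*, *isl1* or *insm1b* was found in 15 of 31 cells of control and 23 of 27 of *gcgr-/-*, while 6 and 2 cells had none of the 10 factors.

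Markers of cell types also differed between the control and *gcgr-/-* cells with no leading hormone, in both directions. The 7 pan-endocrine genes listed, which include *pax6b*, *neurod1* and *insm1b*, summed to 200 CPM in control and 1973 CPM in *gcgr-/-*, with none at 0. The 6 duct and epithelial genes listed summed to 22212 CPM in the control cells with no leading hormone (18546 and 24652 by plate) and to 1558 CPM in those of *gcgr-/-* (213 to 3497), and all 6 had counts in both. The 10 acinar genes listed summed to 976 CPM in control, with *cel.1* and *amy2a* at 0, and to 4.49 CPM in *gcgr-/-*, with 8 of 10 at 0. *gcga* had 159 CPM in control and 4094 CPM in *gcgr-/-*, a median of 0.410% of a *gcgr-/-* cell's counts and so short of the 1% limit. The other α-cell genes listed besides *arxa* were higher in *gcgr-/-* too. These were *gcgb* (33.6 and 3173 CPM), *pnoca* (9.75 and 3112 CPM) and *npb* (0 and 238 CPM). The 4 neuron genes listed summed to 314 CPM in control (101 to 634 by plate) and 858 CPM in *gcgr-/-* (101 to 2459), with none at 0. In hormone-led kinds the epithelial genes summed to between 193 and 1055 CPM. The endothelial and immune lists were at or under 4.61 CPM and the red blood list at or under 10.7 CPM in every kind. The part of these genes in the results was not tested.

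Of 68 other islet transcription factors listed, 65 were among the genes counted. Between *ins*-led and glucagon-led *gcgr-/-* cells 32 could be compared, of which 9 were higher and 13 lower by ratio, beside 58% of all genes called in either direction, and *nkx6.2*, a homeobox gene of zebrafish β cells, was the largest. It had 168 CPM in 16 of 54 *ins*-led cells and 0 counts in 106 glucagon-led cells, at least 230-fold higher against the floor (at least 186-fold by the exact interval), and it was at 171 CPM in 7 of 41 control *ins*-led cells. It was not limited to *ins*-led cells, since *sst1.1*-led cells had 155 CPM in *gcgr-/-*, from 4 of 52 cells, and 28.8 CPM in control, from 1 of 36. *pax4*, a homeobox gene that acts in β and δ cells of mouse, had the largest ratios of those higher in *sst1.2*-led than in *sst1.1*-led cells. It had 325 CPM in 5 of 29 control and 179 CPM in 3 of 29 *gcgr-/-* *sst1.2*-led cells, against 1 count in 36 control and 0 in 52 *gcgr-/-* *sst1.1*-led cells. *sox11b*, a Sox gene, was the largest of those higher in *sst1.1*-led than in *ins*-led *gcgr-/-* cells, at 138 CPM in 9 of 52 cells against 1 count.

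Of the listed factors compared, 12 of 22 were higher and 4 lower in *sst1.2*-led than in *sst1.1*-led control cells, and 7 of 24 higher and 11 lower in *gcgr-/-*. Between glucagon-led and *sst1.1*-led *gcgr-/-* cells 8 of 29 were higher and 9 lower. Between *sst1.1*-led and *ins*-led cells 7 of 25 were higher and 11 lower in control, and 8 of 23 and 6 in *gcgr-/-*. Between the genotypes, 8 of 25 were higher and 8 lower in *ins*-led cells, 14 of 24 and 6 in *sst1.1*-led, 8 of 21 and 8 in *sst1.2*-led, and 12 of 23 and 6 in cells with no leading hormone. Of all genes, between 59.5% and 71.5% were called in either direction in these comparisons. Among them *atf3*, a stress-induced factor, had 190 and 1702 CPM in *ins*-led (ratio 8.95, interval 7.91 to 10.2) and 229 and 2223 CPM in *sst1.2*-led cells (9.72, 8.04 to 11.9), with counts in 36.6% and 90.7% of *ins*-led and in 41.4% and 96.6% of *sst1.2*-led cells. *tshz1*, a zinc finger gene, had 16.4 and 394 CPM in *sst1.1*-led cells (24.1, 15.6 to 39.2).

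Several factors have a close copy in zebrafish, and how reads shared by copies were counted is not given in the sources used here. *pax6a* had at most 33.8 CPM, in 4 *ins*-led *gcgr-/-* cells. *arxb* had 0 counts in every kind with 20 or more cells, and *insm1a* had at most 13 counts. *myt1a* reached 132 CPM in *gcgr-/-* cells with no leading hormone. *foxa1*, a separate gene of the same family as *foxa2* and not a copy of it in this sense, reached 82.3 CPM in control cells with no leading hormone, all in 2 cells.

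Over the 9 groups of kind and sample with 20 or more cells, the gene with the level most like each factor was found among 6501 genes by Pearson's r of log2(CPM + 10), as a description. For *arxa* these were *gfra3* (r = 0.956), *ehbp1* and *dnajc15*, for *pdx1* *acy1* (0.963), *pcdh2g16* and *arhgap36*, and for *hhex* *epn2* (0.948), *kdelr2b* and *sub1a*. For *pax6b* they were *slc3a2b* (0.961), *atp2b1a* and *tshz1*, for *neurod1* *ccnyl1* (0.973), *myl6* and *srpra*, and for *isl1* *nup153* (0.962), *sgsm3* and *bag6*. For *insm1b* they were *pphln1* (0.917), *far1* and *rsrp1*, for *myt1b* *ndufb4* (0.936), an unnamed gene and *xpo1a*, for *foxa2* *pbxip1b* (0.954), *chchd10* and *ormdl1*, and for *mnx1* a pair of unnamed genes and *mpv17l2* (0.945). The groups share plates and depth, and a correlation picked as the highest of 6501 over 9 points says little on its own.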

How the data were processed

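Single cells from 1 control and 1 gcgr-/- sample were analysed. Per the paper's methods, the authors cut off poly T tails, trimmed with Trim Galore, mapped with STAR to GRCz11 and assigned reads to coding sequence by featureCounts. The deposited values are read counts, not normalized. Versions are not given in the sources used here, and no collapsing of molecular identifiers is stated. Of 4 tables deposited, the 2 with all cells were used. The tables of 285 kept cells, whose counts were equal, served as an alternative. The paper states that possible β and δ cells were excluded from these, yet most *sst1.1*-led cells were still among them. Genes were joined by row, because 17 names were spelled differently. Depth ran from 2231 to 286288 counts per passing cell, and a group at 0 was set at a floor of 3 counts.

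Ratios of summed CPM were given exact conditional intervals and shares exact binomial intervals. Python 3.11.15, numpy 2.4.6, pandas 2.3.3, scipy 1.17.1 and matplotlib 3.10.9 were used. Both kinds of interval were tried on simulated counts with Poisson or binomial error only. Such counts cannot show how the intervals do where reads are not collapsed or a single cell holds most counts. The members, the lists and the comparisons were chosen with earlier results of these data known. Named were all 10 members, of the listed factors called by ratio at most the 4 with the largest ratio in each direction of a comparison, and the 3 genes most like each member. The copies of members and the rule on shares were added after values were seen. As alternatives served the mean over cells of each cell's CPM, thinning to 5000 counts with seed 1, totals without the 8 hormone genes, a leading hormone at 5%, cells with a second hormone left out, at least 750 genes, the highest cell left out, each plate left out, the kept cells, and minimums of 10 or 50 counts. RefSeq's gene table held 9 of the 10 symbols (isl1 is named otherwise there) and is of another build (GRCz12tu), so no coordinates are given. Sequences of the members were not used here.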

Additional observations from a re-analysis of the deposited data

Results flagged for a closer look

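Some ratios of the members pointed in opposite directions in the 2 genotypes or in 2 kinds of cell, with both intervals outside 1, and none of these differences was tested. The ratio of *sst1.1*-led to *ins*-led cells was 0.644 in control and 1.26 in *gcgr-/-* for *pax6b*, and 0.658 and 1.53 for *isl1*. The control ratio of *isl1* kept its side of 1 in 5 of 9 alternatives and was 2.37 with the mean of each cell's own CPM. The ratio of *sst1.2*-led to *sst1.1*-led cells was 4.52 in control and 0.796 in *gcgr-/-* for *hhex*, and 1.59 and 0.879 for *pax6b*. Without the cells that had a second hormone the *gcgr-/-* ratio of *hhex* was 3.51, on the same side of 1 as in control.

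The ratio of *gcgr-/-* to control differed in direction between kinds of cell for 3 members. For *arxa* it was 0.0259 in *sst1.2*-led cells and 39.4 in cells with no leading hormone. The first rests on 2 control cells with 28 counts between them, against 2 counts in *gcgr-/-*. In the second, 45 of the 114 *gcgr-/-* counts were in 1 cell and 34 in another. Both *arxa* ratios kept their side of 1 in every alternative. For *hhex* the ratio was 3.67 in *ins*-led and 1.60 in *sst1.1*-led cells, against 0.281 in *sst1.2*-led cells. Each of these *hhex* ratios fell on the other side of 1 without the cells that had a second hormone. It was then 0.683 in *ins*-led cells, below 1 in *sst1.1*-led cells and 1.25 in *sst1.2*-led cells. With the cells that the authors kept, the *sst1.2*-led ratio was 1.06. The *hhex* directions thus depend on which cells are used. For *isl1* the ratio of *gcgr-/-* to control was 0.653 in *ins*-led cells, against 1.52 in *sst1.1*-led and 1.90 in *sst1.2*-led cells.

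Cells that failed the filter entered no comparison, and some had counts of the members. In control 24 of 36 such cells had at least 1, with 118 counts in all, and in *gcgr-/-* 53 of 96 had, with 488 counts. Their median depth was 1094 and 896 counts per cell.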

How the results depend on the processing

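No paired analysis was possible because each genotype had 1 sample. Of 989 member ratios under an alternative, 118 fell on the other side of 1 from the value reported. Of these, 16 belonged to ratios that had been called (past 2-fold, with an interval outside 1), and their values follow. Of the other 973, 619 moved by less than their interval and 354 further. Leaving out the hormone genes from the totals shifted all log2 ratios of a comparison by between -0.18 and 0.23. Without cells of a second hormone, *hhex* was 0.522 (ins-led over glucagon-led *gcgr-/-* cells), 0.683 (genotype, *ins*-led) and 1.25 (genotype, *sst1.2*-led), and *mnx1* 0.531 (genotype, *ins*-led). With the kept cells, *hhex* was 1.06 (genotype, *sst1.2*-led) and *mnx1* 1.42 (glucagon-led over *sst1.1*-led). This *mnx1* ratio was 1.33 at a hormone limit of 5% and 1.28 without the highest cell. Without plate F, *insm1b* was 1.12 (ins-led over glucagon-led) and *mnx1* 0.576 (genotype, *ins*-led). *neurod1* was 0.617 without plate A (sst1.2-led over *sst1.1*-led control), 0.888 without plate C and 0.977 thinned (the same in *gcgr-/-*), and 0.900 at 5% and 0.755 at 750 genes (genotype, *sst1.1*-led). *pdx1* was 1.67 at 5% (genotype, no hormone).

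Of 140 counts of members called by ratio, 20 moved by over 1.5 times, and of 120 by share 15 did. The share over all genes was not taken under the alternatives, so these counts have no background beside them. They show how the calls moved and are not results about the factors. In the main setting 58% to 71.5% of all genes were called by ratio. By ratio, *ins*-led and glucagon-led cells had 3 without plate F. The *sst1.1*-led and *ins*-led control cells had 5 without second hormones and 4 without plate B. In *gcgr-/-* they had 2 with per-cell means, thinned, without second hormones, at 750 genes or at a minimum of 10 counts, 3 at 5% or without plate F, and 4 without plate E. With per-cell means a call by ratio needed 2-fold only and used no interval, a looser rule than elsewhere. The *sst1.2*-led and *sst1.1*-led control cells had 2 thinned or without plate A, and *gcgr-/-* cells 6 without second hormones and 5 with kept cells. Between genotypes, *ins*-led cells had 1 without second hormones, and *sst1.1*-led cells 1 at 5% or without plate E and 5 without second hormones or without plate B. By share, *sst1.2*-led and *sst1.1*-led *gcgr-/-* cells had 2 without plate C, and glucagon-led and *sst1.1*-led cells 3 thinned or without plate C. Between genotypes, *sst1.2*-led cells had 0 at 5%, without second hormones, at 750 genes, without plate B, D, E or F, or with kept cells. Cells with no leading hormone had 1 at 750 genes or without plate C or D and 0 without plate B. The cause of these moves was not tested. The kept cells gave no value for *ins*-led cells, of which 0 control and 1 *gcgr-/-* were kept. *mnx1* and *insm1b* had counts in few cells, and the part of depth in this was not tested.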

Other observations

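The kinds of cell with few members entered no comparison. In *gip*-led cells *pdx1* had a count in 7 of 7 control cells, at 416 CPM, and in 1 of 2 *gcgr-/-* cells, and *hhex* had none in either. In the 3 control and 12 *gcgr-/-* cells led by *ghrl*, the ghrelin gene, *foxa2* had 462 and 545 CPM, in 2 and 5 cells, and *myt1b* 50.2 and 982 CPM, in 1 and 9 cells, while *hhex* had 1 count in control and 0 in *gcgr-/-*. In the 6 *sst2*-led cells of each sample *hhex* had 458 and 109 CPM and *pdx1* 3.29 and 19.4 CPM, and 75 of the 76 control counts of *neurod1* were in 1 cell. *arxa* was also found in these small kinds. It had a count in 2 of 7 control *gip*-led cells, each with *pdx1*, and in 1 of 2 *gcgr-/-* ones. Among *ghrl*-led cells 1 of 3 in control had it. Of the 12 in *gcgr-/-*, 1 had it without *pdx1* or *hhex* and 1 had it with *pdx1*. Among *sst2*-led cells 1 of 6 in control had it.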
